A study of Homo sapiens and synthetic construct with 14 samples.

Results

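RE1 elements are binding sites of the repressor REST, and the genome-wide reporter library of this study held 8436 windows around RE1 motifs, each 200 bases long by its name. Of these, 2570 windows had a native version in the library and no version of the same window in which the motif was scrambled. They were found from the names alone: project motif, a name ending in Ref, and no element of the same window name ending in Scr. The other 5866 windows had a scrambled partner, 3074 of them with a single-base variant in a further version and 2792 without one. None of the 2570 unpartnered windows carried a variant, so the partnered windows without a variant are the closest class. For windows with a partner, the scrambled version is the within-locus control, and for the unpartnered windows the random elements of the library took that place here.

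REST is a zinc finger protein that binds RE1 sites and recruits corepressors and histone-modifying enzymes, and it is known for keeping neuronal genes off in cells that are not neurons. An RE1 site placed near an active enhancer on a reporter plasmid can lower the reporter's messenger RNA. A window of genomic DNA carries more than the motif, so the same stretch can hold sites for activators as well.

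The assay, MPRAduo, is a massively parallel reporter assay that joins an enhancer to an element in the silencer position and reads the messenger RNA of a GFP reporter through barcodes. Each element stood beside 5 enhancers, named En02, En09, En11, En19 and En21. The same plasmid pool was electroporated into GM12878 (a lymphoblastoid B-cell line), HepG2 (a liver cancer line), K562 (a chronic myeloid leukaemia line) and SK-N-SH (a neuroblastoma line), and RNA was recovered after 24 hours. Each line is 1 group of 4 RNA libraries, which the design text calls biological replicates, and all 4 lines share 4 plasmid libraries. Values given for the 4 lines without their names follow this order of lines. No group carried another treatment or genotype, and the p-values measure the spread between these libraries.

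RNA libraries held between 50184575 counts (K562) and 94912250 counts (K562), and plasmid libraries between 35194052 and 54483871. The unpartnered windows took 10.2% to 10.8% of the counts of every library, plasmid included. At a mean of 20 or more plasmid counts, 2479 of the 2570 windows were measured beside 1 or more enhancers, in 11958 of 12477 pairs of a window and an enhancer, and 2274 beside all 5. A pair had a median of 43 barcodes and 280 plasmid counts, against 43 and 285 for partnered windows without a variant and 40 and 268.5 for random elements. Among the 2274 windows, single RNA libraries correlated with Pearson's r of 0.77 to 0.83 for GM12878, 0.93 to 0.96 for HepG2, 0.98 to 0.99 for K562 and 0.98 for SK-N-SH, with the 4 plasmid libraries shared within each value.

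Values are log2 of RNA over plasmid, averaged over the 5 enhancers of a library, with each library scaled on the summed counts of the 806 random elements beside the same enhancer. A sum is led by its strongest members, so the median random element lies below 0 on this scale, at -0.50, -0.76, -0.97 and -0.73 in the 4 lines. The median unpartnered window lay at -0.57 for GM12878, -0.81 for HepG2, -0.96 for K562 and -0.93 for SK-N-SH. The difference of these medians, unpartnered minus random, was -0.06, -0.04, 0.01 and -0.20 in that order of lines. In single RNA libraries it ran from -0.13 to -0.06 in GM12878, from -0.08 to -0.03 in HepG2, from 0.0026 to 0.03 in K562 and from -0.25 to -0.17 in SK-N-SH. The class median was farthest below the random elements in SK-N-SH, and in K562 it was level with them.

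In description, the unpartnered windows differed from random elements mainly in their spread, part of which scrambled versions shared, as given below. The standard deviation over windows was 0.94, 1.44, 1.54 and 1.44 in the 4 lines, against 0.75, 0.97, 1.12 and 1.03 over the 721 random elements measured beside all 5 enhancers. By construction, 5% of random elements lie below their own 5th percentile. The share of unpartnered windows below that line was 12.9% for GM12878, 20.2% for HepG2, 16.8% for K562 and 21.4% for SK-N-SH. Above the 95th percentile of random elements lay 6.77%, 10.1%, 9.02% and 7.56% of them in the same order. In the 4 libraries of SK-N-SH taken singly, the share below ran from 19.7% to 21.5%, and in GM12878 from 8.66% to 11.1%.

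The partnered windows without a variant, 2476 of which were measured beside all 5 enhancers, had nearly the same distribution. Their medians were -0.60, -0.88, -1.06 and -0.99 in the 4 lines, and 13.5%, 21.3%, 16.3% and 22.4% of them lay below the 5th percentile of random elements. Scrambled versions of partnered windows had 6.08%, 6.94%, 6.96% and 7.46% below the same line. Above the 95th percentile of random elements lay 7.58%, 9.48%, 8.98% and 7.79% of the scrambled versions, close to the unpartnered shares. The high tail was thus not particular to native windows. The standard deviation over scrambled versions was 0.85, 1.22, 1.37 and 1.26, between those of random elements and unpartnered windows in each line. Unpartnered windows lay 0.03, 0.07, 0.10 and 0.06 above the partnered windows without a variant by their medians, and 0.04, 0.07, 0.07 and 0.06 above all partnered windows. This difference was above 0 in each of the 16 RNA libraries, yet it is small beside the standard deviation of 0.94 to 1.54 over windows. Against partnered windows without a variant, it had the other sign among windows with few plasmid counts, as given below. In an alternative, only windows whose scrambled version was itself measured beside all 5 enhancers counted as partnered. The other partnered windows then joined the unpartnered side, so the compared group was no longer the members alone. The difference was then -0.0014, 0.02, 0.03 and 0.01.

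**Figure D1:**
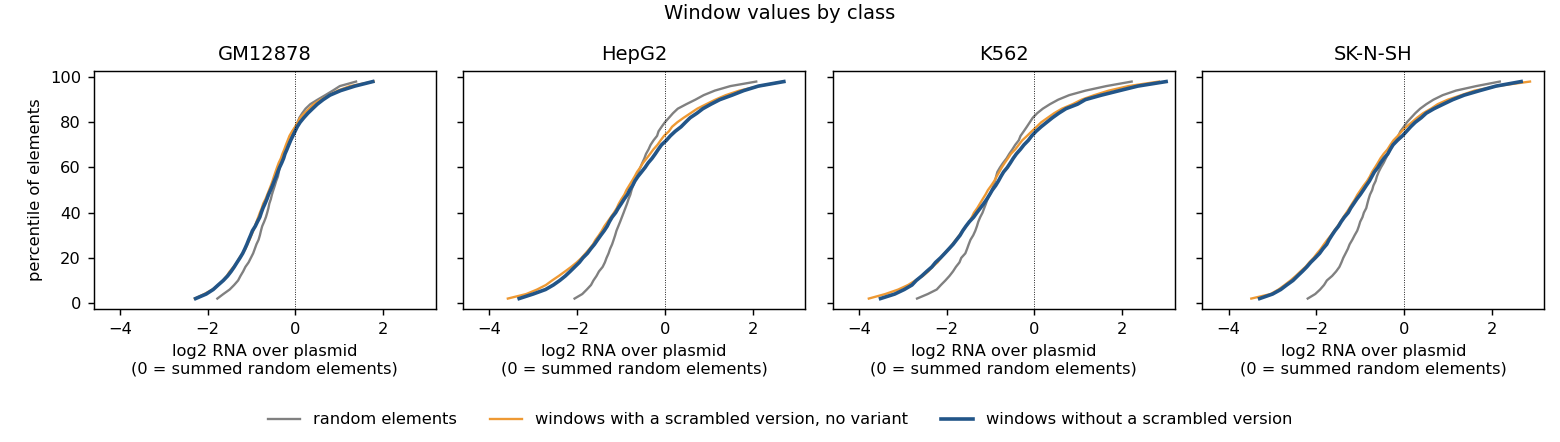
Percentiles (y axis) of log2 RNA over plasmid averaged over 5 enhancers (x axis) in each line, for 2274 windows without a scrambled version (blue), 2476 windows with one and no variant (orange) and 721 random elements (grey). The blue and orange curves run nearly together, and both are wider than the grey curve, most clearly on the low side.

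Depth moved with these values. Among unpartnered windows, 742 had a mean plasmid count under 100 beside at least 1 enhancer, and their medians were -1.03, -1.27, -1.42 and -1.34 in the 4 lines. The 1532 windows with 100 or more beside every enhancer had medians of -0.42, -0.65, -0.79 and -0.77. Random elements of the deeper kind, 460 in number, had medians of -0.40, -0.67, -0.91 and -0.66. Among the deeper windows, 12.5%, 20.2%, 15.1% and 19.7% still lay below the 5th percentile of the equally deep random elements, and 6.59%, 12.7%, 10.5% and 9.99% above the 95th. Among the 742 thinner windows, 17.9%, 20.2%, 18.5% and 26.8% lay below the 5th percentile of equally thin random elements. The low tail of the deeper windows was thus smaller in each line but HepG2. The thinner windows' median minus that of random elements was -0.33, -0.31, -0.28 and -0.53. The deeper windows' median lay 0.12 above that of random elements in K562 and 0.11 below it in SK-N-SH. Partnered windows without a variant had medians of -0.92, -1.23, -1.345 and -1.20 in the 4 lines where thinner. Where deeper, they had medians of -0.49, -0.75, -0.92 and -0.87. In each line the unpartnered median was thus below theirs among thinner windows and above it among deeper ones.

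Single windows were tested with limma as RNA against plasmid over the libraries, with Benjamini-Hochberg adjustment over all 21378 elements measured beside all 5 enhancers. In GM12878, 1276 of the 2274 unpartnered windows were lower than the summed random elements and 343 were higher, against 51.0% of all elements lower and 16% higher. In HepG2 the counts were 1463 lower and 545 higher (all elements 63.3% and 24.2%). K562 gave 1624 lower and 500 higher (all elements 71.8% and 21.6%), and SK-N-SH 1629 lower and 500 higher (all elements 69.2% and 23.1%). The members' shares called lower were 56.1%, 64.3%, 71.4% and 71.6%, above the share of all elements in GM12878 and close to it in the other lines. Random elements themselves were called lower in 50.8%, 70.0%, 78.4% and 72.5%, because the zero of the scale lies above their median.

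With each library set so that the median random element is 0, the split became more even. Lower and higher calls were then 840 and 496 in GM12878 (all elements 30.8% and 23.6%), 1040 and 822 in HepG2 (40.1% and 37.2%), 1080 and 936 in K562 (44.0% and 42.8%), and 1200 and 838 in SK-N-SH (46.6% and 40.9%). On this scale the members' shares called lower were 36.9%, 45.7%, 47.5% and 52.8%, and random elements' shares were 26.8%, 39.8%, 46.5% and 43.1%. The members' shares lay above those of all elements in each line, which is a description of these lists and no test of the class.

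Beside single enhancers, edgeR's quasi-likelihood test compared RNA with plasmid counts in each of the 11958 pairs. In GM12878, 3429 pairs were lower and 1945 higher at a Benjamini-Hochberg adjusted p under 0.05 (all 112451 pairs 25.3% and 17.3%). In HepG2, 6269 were lower and 2992 higher (49.8% and 24.8%). K562 gave 7826 and 3049 (64.6% and 25.5%) and SK-N-SH 7821 and 2925 (62.7% and 25.3%). On the scale of the median random element the members' counts were 2261 lower and 2687 higher in GM12878 (all pairs 15.9% and 23.9%), 4042 and 4267 in HepG2 (29.4% and 36.5%), 5191 and 4744 in K562 (39.5% and 40.6%) and 5686 and 4347 in SK-N-SH (41.2% and 39.1%). GM12878 and HepG2 turned from more lower calls to more higher ones with the scale, while K562 and SK-N-SH did not.

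The low tail depended on the enhancer as well as the line. In SK-N-SH, 29.8% of pairs beside En02 and 28.1% beside En11 lay below the 5th percentile of random elements beside the same enhancer, against 17.1% beside En19, 11.3% beside En09 and 9.19% beside En21. HepG2 had the same 3 enhancers on top, with 20.4% beside En02, 17.6% beside En11 and 16.7% beside En19. K562 had 16.3% beside En02, 15.8% beside En11, 11.6% beside En09, 11.4% beside En19 and 9.19% beside En21. GM12878 ran the other way, with 17.3% beside En09 and 12.4% beside En19, against 7.98% beside En02 and 6.30% beside En11. The partnered windows without a variant followed the same order of enhancers in SK-N-SH, HepG2 and GM12878 and not in K562, for example 32.5% beside En02 and 9.33% beside En21 in SK-N-SH. In GM12878, En02 and En11 also gave the fewest calls, with 13.8% and 6.22% of members lower, close to the 13.5% and 5.85% of random elements.

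**Figure D2:**
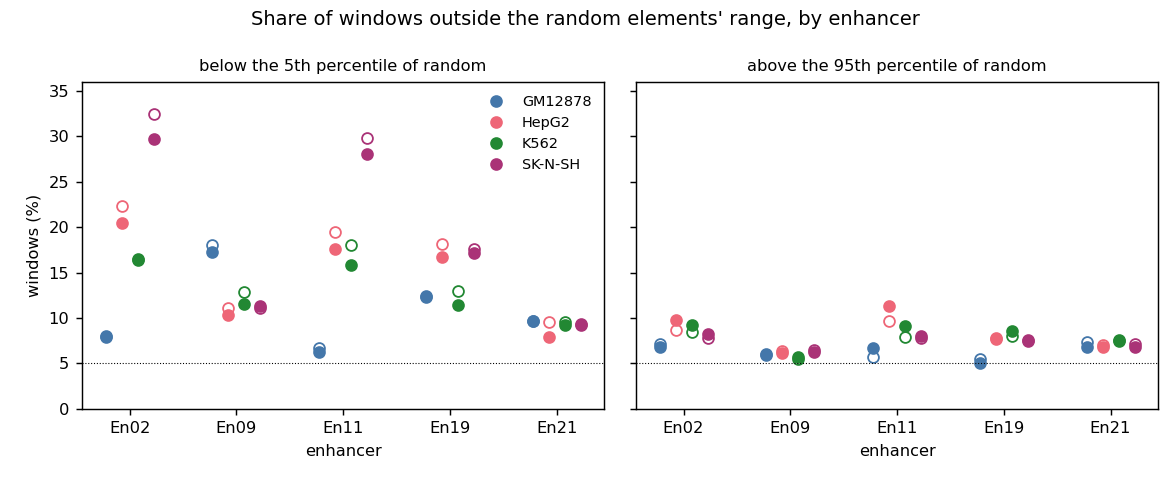
Share of windows (%, y axis) below the 5th (left) or above the 95th percentile (right) of random elements beside the same enhancer (x axis), by line (colour). Filled points are windows without a scrambled version and open points windows with one and no variant, and the dotted line is at 5%, where random elements lie by construction. SK-N-SH is highest beside En02 and En11 in the left panel, and GM12878 is highest beside En09.

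A window tended to act alike beside different enhancers, but not always. Values of the members beside 2 enhancers correlated with r from 0.45 to 0.83 for GM12878, 0.65 to 0.88 for HepG2, 0.64 to 0.90 for SK-N-SH and 0.56 to 0.91 for K562, over pairs of values that share libraries. In K562, 999 windows (43.9%) were called lower beside all 5 enhancers and 229 (10.1%) higher beside all 5, against 40.4% and 10% of all elements. SK-N-SH had 1046 and 259 (46.0% and 11.4%, all elements 41.2% and 11.2%), and HepG2 had 606 and 281 (26.6% and 12.4%, all elements 22.2% and 12%). GM12878 had 19 and 111 (0.84% and 4.88%, all elements 0.655% and 5.32%). Random elements were lower beside all 5 in 0.14%, 20.2%, 41.2% and 39.5% in the 4 lines, and higher in 2.91%, 6.80%, 5.69% and 7.49%. Windows called lower beside 1 enhancer and higher beside another numbered 653 for K562 (28.7%), 521 for SK-N-SH (22.9%), 348 for HepG2 (15.3%) and 145 for GM12878 (6.38%). After the median random element beside each enhancer was subtracted, 436 of them for K562 (19.2%), 337 for SK-N-SH (14.8%), 271 for HepG2 (11.9%) and 140 for GM12878 (6.16%) kept both directions. Random elements showed opposite calls in a larger share in K562 (33.6%), SK-N-SH (26.9%), HepG2 (16.6%) and GM12878 (8.46%). After the same subtraction their shares were 21.5%, 16.5%, 11.1% and 8.04%, below that of the members in HepG2 and above it in the other lines.

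Across lines, 1087 of the 2274 windows were lower in all 4 (47.8%, all elements 42.9%) and 262 were higher in all 4 (11.5%, all elements 11.0%). With the median random element at 0, the counts were 675 lower (29.7%, all elements 22.7%) and 423 higher (18.6%, all elements 18.6%). The random elements on this second scale gave 19.4% and 14.8%. On the main scale, 249 windows were lower in 1 line and higher in another (10.9%, all elements 13.6%, random elements 6.94%), and 14 were called in no line, as were 145 of the 21378 elements. Between lines the members' values correlated with r from 0.83 (GM12878 and HepG2) to 0.92 (K562 and SK-N-SH), with the plasmid libraries shared.

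The lowest unpartnered windows were taken from those called lower in all 4 lines. They lay far below the random elements in 3 lines, and 5 of the 6 lowest were nearer to them in GM12878. The low tails of members and of random elements also reached less far in GM12878. The 5th percentile of members was -1.965, -2.87, -3.07 and -2.92 in the 4 lines. That of random elements was -1.52, -1.85, -2.31 and -1.96. The lowest by the mean over lines was chr11:66189131-66189331, in the coordinates of the names, for which the sources used here name no genome build. Its 4 HepG2 libraries stood at -4.63, -4.75, -5.18 and -4.83, its K562 libraries at -5.06, -4.76, -5.03 and -4.33, and its SK-N-SH libraries at -4.76, -4.27, -4.41 and -3.45. Its GM12878 libraries, at -1.72, -2.20, -1.60 and -2.16, lay above all 12 others. The fitted values were -4.85 ± 0.12 (SE, limma adjusted p = 5e-09) for HepG2, -4.79 ± 0.14 (3.6e-10) for K562, -4.22 ± 0.22 (1.6e-08) for SK-N-SH and -1.92 ± 0.15 (1.7e-05) in GM12878. In raw counts, the 4 plasmid libraries held 597, 404, 660 and 453 counts of this window beside En02, and the 4 HepG2 libraries 2, 0, 0 and 0. Beside En09 the plasmid libraries held 1442, 1014, 1595 and 1139 counts, and the K562 libraries 37, 36, 53 and 24.

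The windows chr11:66189131-66189331 and chr1:202662181-202662381 were in GM12878 nearest to 0 beside En02 and En11, and less low than in K562 beside every enhancer. For chr11:66189131-66189331 in GM12878, the edgeR estimates were -0.58 beside En02 and 0.04 beside En11, against -2.22 beside En09, -2.94 beside En19 and -3.12 beside En21. Its K562 estimates were -3.88, -3.81, -6.12, -5.67 and -4.67 beside the same enhancers. The window at chr1:202662181-202662381 gave -0.33 and -0.36 beside En02 and En11 in GM12878 and -2.08, -2.70 and -2.76 beside En09, En19 and En21. In K562 the window chr1:202662181-202662381 stood at -3.39, -5.61, -3.97, -5.20 and -5.66 beside En02, En09, En11, En19 and En21. Its window value was -4.72 ± 0.26 (SE, limma adjusted p = 5.5e-07) in HepG2 and -4.68 ± 0.14 (4.3e-10) in K562.

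The other windows among the 6 lowest were chr6:38197627-38197827, chr11:61334731-61334931, chr11:61334771-61334971 and chr1:11610853-11611053. The window at chr6:38197627-38197827 stood at -2.90, -4.50, -4.05 and -4.11 in the 4 lines. The 2 windows of chromosome 11 overlap, with starts 40 bases apart, and were built as separate elements. In HepG2 they stood at -4.79 and -4.34 and in K562 at -4.28 and -4.80. In SK-N-SH they stood at -3.94 and -3.98, with -2.33 and -1.78 for GM12878. The window at chr1:11610853-11611053 was the thinnest, with a mean plasmid count of 24.5 beside its weakest enhancer, and it had no RNA count in any HepG2 library beside En11, where the 4 plasmid libraries together held 200. Its HepG2 value of -4.08 became -2.58 with a pseudocount of 5, and that of chr6:38197627-38197827 went from -4.50 to -3.32. Among the 6 lowest, chr1:11610853-11611053 was the one not nearer to the random elements in GM12878, at -2.82, -3.32, -2.78 and -2.86 from their median in the 4 lines (limma F test adjusted p = 0.17).

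In single lines, windows with a plasmid mean of 100 or more and the same sign beside every enhancer were ranked. In SK-N-SH the lowest was chr10:124671458-124671658, with libraries at -4.46, -4.57, -4.37 and -4.10 and a value of -4.38 ± 0.09 (SE, limma adjusted p = 3.1e-11). After chr11:66189131-66189331 came chr19:55028735-55028935 at -4.20 ± 0.12 (1.6e-10), with libraries at -4.52, -4.31, -3.92 and -4.04. Beside En11, chr19:55028735-55028935 had 3 SK-N-SH counts in all, against 512 plasmid counts. In GM12878 the lowest were chr16:83735233-83735433 at -2.69 ± 0.35 (0.00032), chr8:68772966-68773166 at -2.61 ± 0.47 (0.0016) and chr3:53409196-53409396 at -2.59 ± 0.39 (0.0007). The GM12878 libraries of chr16:83735233-83735433 spread from -3.61 to -1.93, far wider than those of the SK-N-SH windows. Those of chr8:68772966-68773166 spread from -4.22 to -1.88. Each of these GM12878 windows had libraries without a count. Beside En02 the RNA libraries held 172, 0, 0 and 17 counts of chr8:68772966-68773166 and 0, 0, 48 and 46 of chr3:53409196-53409396. Beside En21 they held 63, 0, 7 and 40 of chr16:83735233-83735433.

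The highest unpartnered windows by the mean over lines were taken from those called higher in all 4 lines. A value above 0 in every line is thus fixed by that choice. The highest was chr10:7860418-7860618, with K562 libraries at 5.47, 5.26, 5.19 and 5.13, and SK-N-SH libraries at 4.82, 4.84, 4.76 and 4.74. Its HepG2 libraries stood at 4.46, 4.16, 4.19 and 4.11, and its GM12878 libraries at 3.64, 3.62, 3.63 and 3.55, below all others. The 95th percentile of all members was also lowest in GM12878, at 1.16, 1.95, 2.16 and 1.89 in the 4 lines. The values were 5.26 ± 0.10 (SE, limma adjusted p = 3e-11) in K562 and 3.61 ± 0.10 (7e-08) in GM12878. Beside En02, plasmid libraries held 117, 75, 57 and 37 counts and K562 libraries 2445, 2013, 1806 and 1377. The next were chr17:6918016-6918216 (4.67 ± 0.08 in K562, limma adjusted p = 2.8e-11), chr12:42538562-42538762 (4.82 ± 0.09, 3e-11) and chr5:178977548-178977748 (4.46 ± 0.11, 9.2e-11).

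In K562 these 4 windows ranked the enhancers alike. There, chr10:7860418-7860618 stood at 7.24 beside En02, 6.67 beside En11, 5.38 beside En19, 3.57 beside En09 and 3.33 beside En21. The same order held in K562 for chr17:6918016-6918216 (6.16, 5.92, 4.93, 3.36 and 3.08), chr12:42538562-42538762 (7.23, 6.14, 4.83, 3.60 and 2.44) and chr5:178977548-178977748 (5.97, 5.58, 4.51, 3.54 and 2.70). The 95th percentile of all members in K562 had this order too, at 3.10, 2.875, 2.35, 2.00 and 1.745. So had that of partnered windows without a variant, at 2.85, 2.405, 2.21, 2.00 and 1.70. Among random elements it was highest beside En09, at 1.89. In GM12878 the order differed for 3 of the 4 windows. There, chr5:178977548-178977748 stood higher beside En11 (3.73) than En02 (3.49), chr12:42538562-42538762 higher beside En09 (2.998) than En19 (2.41), and chr10:7860418-7860618 higher beside En21 (2.81) than En09 (2.68). By the same ranking, the windows next after chr17:6918016-6918216 were chr1:226186900-226187100 in GM12878 (2.64 ± 0.09), chr16:30825702-30825902 in HepG2 (3.64 ± 0.07), chr3:156877928-156878128 in K562 (3.90 ± 0.08) and chr20:55043642-55043842 in SK-N-SH (4.42 ± 0.06).

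**Figure D3:**
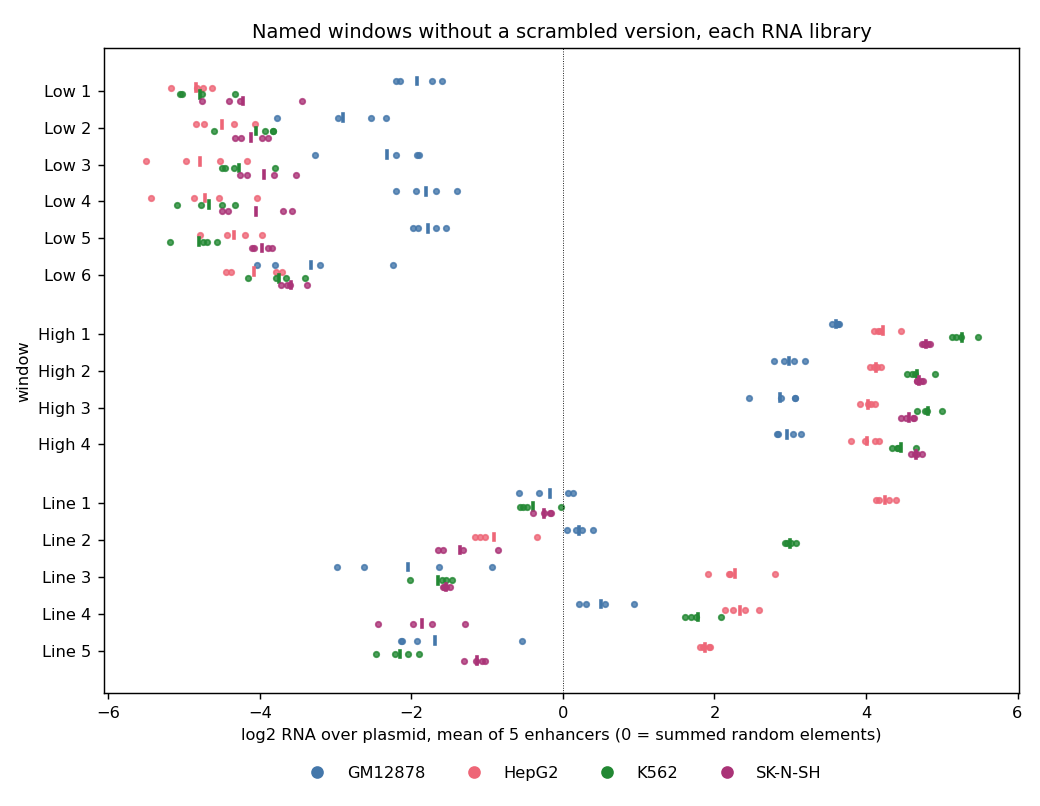
log2 RNA over plasmid, averaged over 5 enhancers (x axis), of the 6 lowest and 4 highest windows by the mean over lines and the 5 windows with the largest range between lines (y axis). Points are single RNA libraries coloured by line, and vertical ticks are fitted values. In the 4 high windows every GM12878 library is nearer to 0 than any library of the other lines. Over all members, values in GM12878 also had the smallest standard deviation. In the first window of the line group the 4 HepG2 libraries stand alone above 4.

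To compare the lines, RNA values of the 16 RNA libraries entered a moderated F test of limma. At a Benjamini-Hochberg adjusted p under 0.05, 1741 of the 2274 windows differed between lines (76.6%), against 76.1% of all elements, so the members' share is that of the library at large. The range between the highest and lowest line had a median of 0.96, against 0.93 for all elements and 0.75 for random elements, and exceeded 2 in 140 windows (6.16%, all elements 7.78%). Among the 1741, the highest line against the median random element was GM12878 in 641 (36.8%), HepG2 in 457 (26.3%), K562 in 438 (25.2%) and SK-N-SH in 205 (11.8%). Of the 16277 elements past the same test, the shares were 33.6%, 26.4%, 25.4% and 14.6% in that order. Windows called higher in 1 line and lower in the other 3 numbered 26 for HepG2 (1.14%, all elements 1.46%), 14 for K562 (0.62%, 0.49%), 7 for GM12878 (0.31%, 1.16%) and 1 for SK-N-SH (0.04%, 0.21%). Of these windows, 14, 5, 2 and 0 kept that pattern against the median random element.

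The largest range was that of chrX:87815858-87816058, a HepG2 window. Its HepG2 libraries stood at 4.40, 4.17, 4.30 and 4.14. The GM12878 libraries stood at -0.58, -0.31, 0.13 and 0.07, the K562 libraries at -0.53, -0.03, -0.47 and -0.57, and the SK-N-SH libraries at -0.40, -0.18, -0.25 and -0.16. HepG2 did not overlap any other line, and the limma F test gave an adjusted p of 6.8e-12. In raw counts beside En19, the plasmid libraries held 214, 164, 242 and 166, the HepG2 libraries 5961, 4028, 3641 and 3764, and the SK-N-SH libraries 88, 157, 155 and 193. Against the median random element, the other 3 lines lay 0.33 (GM12878), 0.57 (K562) and 0.48 (SK-N-SH) above, although they were below 0 on the main scale.

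The window chr6:135644364-135644564 was high in K562, at 3.08, 2.96, 3.004 and 2.93 in its libraries, and near or below 0 elsewhere, at 0.22 for GM12878, -0.91 for HepG2 and -1.36 for SK-N-SH (limma F test adjusted p = 1.4e-10). Beside En02 and En11 it reached 4.38 and 4.30 in K562, and beside En09 and En21 1.16 and 1.31. Both chr21:44860962-44861162 and chr5:151200570-151200770 were above 0 in HepG2 and below it in the other lines. The first stood at 2.28 in HepG2 and -2.05, -1.66 and -1.55 in GM12878, K562 and SK-N-SH, and the second at 1.88 and -1.69, -2.16 and -1.14. The window chr10:80218791-80218991 was low in SK-N-SH alone, at -1.86, against 0.50, 2.34 and 1.79 in GM12878, HepG2 and K562 (limma F test adjusted p = 1e-09).

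Although these windows lack a scrambled version, many have a neighbour that has one. Of the 2570 windows, 629 (24.5%) overlap another motif window, 437 of them a partnered one and 236 another unpartnered one, and the 2570 windows cover 2450 separate stretches. The share is the same for partnered windows (24.4%). Each overlapping window is a separately built element with its own barcodes, and pairs share libraries. Where starts lay 1 to 30 bases apart, an unpartnered window and a partnered neighbour differed by a median of 0.22 for GM12878 (86 pairs, r = 0.87), 0.27 for HepG2 (r = 0.95), 0.28 for K562 (r = 0.94) and 0.26 for SK-N-SH (r = 0.95). With starts 31 to 100 bases apart the median difference was 0.52 in K562 (189 pairs, r = 0.81), and with 101 to 199 bases it was 1.04 (130 pairs, r = 0.35). Pairs of 2 unpartnered windows 1 to 30 bases apart differed by 0.36 in K562 (39 pairs, r = 0.95). Agreement thus fell with the distance between starts in every line.

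**Figure D4:**
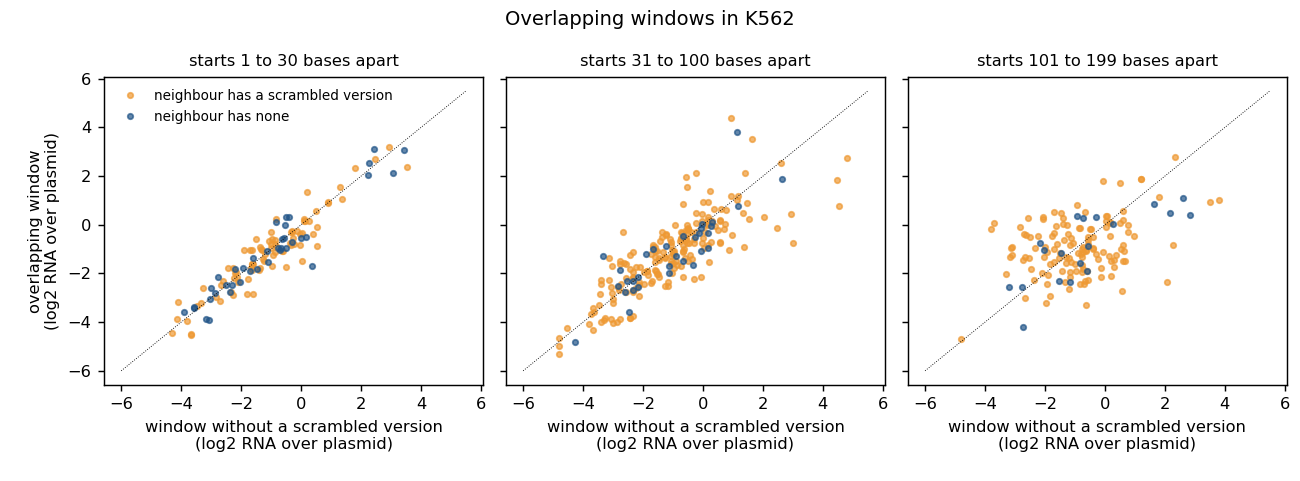
log2 RNA over plasmid in K562 of windows without a scrambled version (x axis) against an overlapping motif window (y axis), by the distance between their starts. Orange points are neighbours with a scrambled version, blue points neighbours without one, and the dotted line marks equal values. Points lie close to the line at 1 to 30 bases and scatter at 101 to 199 bases.

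The scrambled versions of the close neighbours were set beside the unpartnered windows, which have no such control of their own. Without sequences, it is not known whether a neighbour's scrambled version still held the motif of the unpartnered window. The values are thus no substitute for the missing control. Over 81 pairs with starts 1 to 30 bases apart, the unpartnered window minus its neighbour's scrambled version had medians of -0.12, -0.28, -0.26 and -0.34 in the 4 lines. The neighbour's own native version minus its scrambled version had medians of -0.15, -0.26, -0.29 and -0.36. It was lower than that scrambled version in 64.2%, 63.0%, 65.4% and 64.2% of pairs in the 4 lines, and the neighbour's own native version was lower in 67.9%, 69.1%, 72.8% and 74.1%. These are medians over few pairs that share windows, given as a description.

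Among the lowest windows the neighbours' scrambled versions did not all behave alike. The window chr19:55028735-55028935 stood at -4.20 in SK-N-SH and -4.55 in K562, and its partnered neighbour, starting 46 bases on, at -3.83 and -4.26. The neighbour's scrambled version stood at -0.61 in SK-N-SH and -1.32 in K562, and at -1.29 in HepG2 where its native version was at -4.38. Beside chr10:124671458-124671658, the neighbour 28 bases on stood at -4.54 in K562 and its scrambled version at -2.59. The neighbour 44 bases before it stood at -3.44 in both versions in K562, and in SK-N-SH at -3.76 with its scrambled version at -3.72. The neighbour 57 bases on stood at -4.30 in K562 and its scrambled version at -3.09. At chr11:66189131-66189331, the neighbour 40 bases on stood at -4.99 in K562 and its scrambled version at -5.19, and the neighbour 78 bases on at -5.29 and -4.71. All 4 measured neighbours of that window, native and scrambled alike, lay at -4.27 or lower in K562. Native and scrambled neighbours were thus both low at the chromosome 11 stretch, and the native one was lower at the chromosome 19 stretch. The neighbours of the chromosome 10 window differed from each other in this. Motif windows overlap at these stretches, so a scrambled neighbour may still hold the motif of another window. Which motifs each construct kept was not tested.

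Some overlapping constructs both differed between lines. Of 20 pairs with starts up to 100 bases apart, at least 1 member unpartnered and both past the F test with a range over 2, all 20 had the same line on top: GM12878 in 17, HepG2 in 2 and SK-N-SH in 1. Windows recur among these pairs, and taking only pairs in which both members passed in part fixes that count. Where 1 or both members passed, 48 of 53 pairs had the same line on top. No share over pairs of other elements is given here. Values in GM12878 had the smallest standard deviation of the lines, 0.94 over the members and 0.75 over random elements. How far that fixes the line on top for low windows was not tested. The pairs named next were picked after their values were seen. The windows chr4:140763048-140763248 and chr4:140763054-140763254, both unpartnered, stood at 1.97 and 1.86 in HepG2. Their other values were -1.19 and -1.34 for GM12878, -1.93 and -1.79 for K562, and -1.83 and -1.81 for SK-N-SH. The windows chr17:49946789-49946989 and chr17:49946837-49947037 were near 0 in GM12878 (0.20 and -0.15) and at -2.32 and -2.66 in K562.

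Across chromosomes, the share of motif windows without a scrambled version lay between 24.1% (chromosome 14) and 41.0% (57 of 139 windows, chromosome X), and all chromosomes carried some. No unpartnered window carried a variant, so these shares also depend on how many windows did. Among windows without a variant, 57 of 104 were unpartnered on chromosome X and 54 of 135 on chromosome 14.

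A smaller benchmark library, tested in GM12878 beside 21 enhancers in the order of the elements that the labels call SE (run1) and ES (run2), held 23 of the 2570 windows under the same name. Its values are medians over enhancers minus the median random element, in the direction of the authors' deposited fold change, which runs opposite to the column headings, so every sign turns if the headings are right. The median over the 23 windows was -0.46 in run1 and -0.45 in run2, against -0.36 and -0.50 for 55 partnered windows. In run1, 18 of the 23 lay below the median random element and 13 below the 5th percentile of 650 random elements, and in run2 17 and 11. With the sign turned, the medians would be 0.46 and 0.45, with 18 and 17 windows above the median random element and 13 and 11 above the 95th percentile. Of the 23 windows, 20 were measured beside all 5 enhancers in the genome-wide library. Over them, the GM12878 values correlated with r = 0.75 in run1 and 0.91 in run2, in the authors' direction. With the sign turned, both correlations would be negative. They describe separate libraries tested in the same line.

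In the authors' direction, the lowest in run2 was chr19:5356460-5356660, at -1.16 (libraries from -1.34 to -1.01), below random beside 18 of 19 enhancers. With the sign turned it would be the highest, at 1.16, and above random beside the same 18. It stood at -1.78, -2.75, -3.15 and -3.00 in the 4 lines of the genome-wide library. The window chr9:34494045-34494245 followed at -1.14, below random beside 20 of 20 enhancers. The overlapping windows chr5:38921352-38921552 and chr5:38921359-38921559 gave -1.003 and -0.99 in run2, -0.73 and -0.56 in run1, and -1.76 and -1.79 in the genome-wide GM12878 libraries. The highest in the authors' direction was chr19:54448797-54448997, at 1.80 in run2 (-1.80 with the sign turned) and 0.50 in run1, and 1.46, 2.22, 2.18 and 2.70 in the 4 lines.

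**Figure D5:**
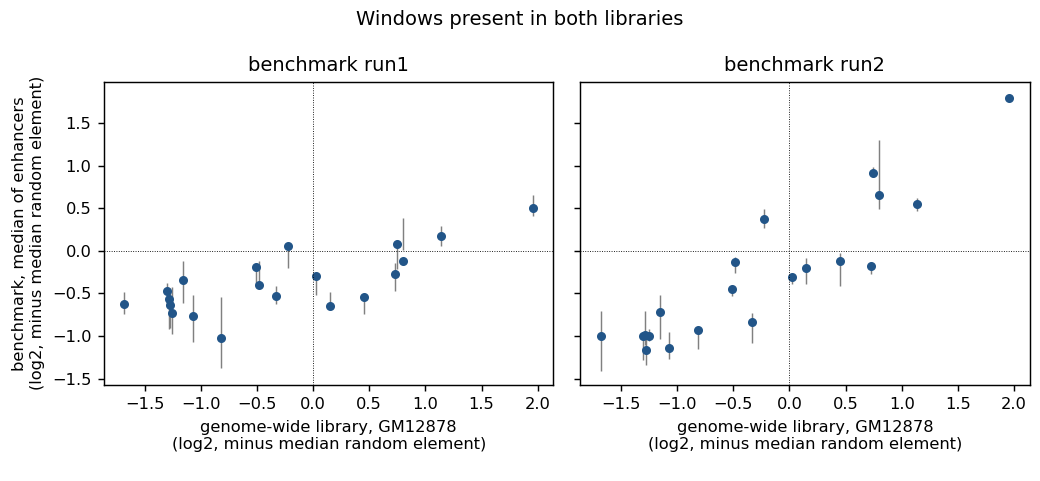
Median over enhancers of 20 windows without a scrambled version in the benchmark library (y axis, log2, minus the median random element) against their GM12878 value in the genome-wide library (x axis, same scale), for both orders of the elements. Grey lines join the lowest and highest of 4 benchmark libraries. Over the 20 windows r is 0.75 for run1 and 0.91 for run2 in the authors' direction, and the values of run2 span a wider range than those of run1.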

How the data were processed

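Barcode counts per enhancer and element were deposited by the authors as whole-number count tables for 4 lines, each with 4 plasmid and 4 RNA libraries, and for 2 benchmark runs in GM12878. The deposited tables also hold the authors' log2 fold changes and mean count signal columns. The aligner, the counting and the genome build of the window names are not given in the sources used here, so no sequence or annotation is given. The members and lists were chosen with earlier results of these data known.

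Pairs needed a mean plasmid count of 20. Each library was scaled on the summed random elements beside the same enhancer, a pseudocount of 1 was added, and log2 RNA over plasmid was averaged over the 5 enhancers. Windows were tested with limma 3.58.1 and pairs with edgeR 4.0.16 (quasi-likelihood) in R 4.3.3, with Benjamini-Hochberg adjustment over all elements or pairs and a threshold of 0.05. DESeq2 1.42.0 was an alternative, as were other scalings, minimums, pseudocounts, enhancers and libraries left out. The scripts were tested on simulated data. The windows named were, per line, the 3 lowest and 2 highest among those called, with a plasmid mean of 100 or more and the same sign beside every enhancer. To these came the 6 lowest and 4 highest by the mean over lines among windows called the same way in all 4, the 5 largest ranges between lines past the F test, and any window also in the benchmark library. Other windows named were chosen after their values were seen. Outside the benchmark, 24 windows were named, and 92 of their 96 calls were the same on the scale of the median random element. Counts of barcode reads are not independent molecules, so precision from depth covers counting error only. Replicate numbers did not pair RNA with plasmid libraries.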

Additional observations from a re-analysis of the deposited data

Results flagged for a closer look

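In 104 groups of 4 libraries, 7 held 1 library far from the other 3, and chance alone flags about 1 in 20 groups. For chr8:68772966-68773166 in GM12878, 1 library stood at -4.22 and the others between -2.22 and -1.88. For chr5:151200570-151200770 in GM12878, 1 stood at -0.54 and the others between -2.14 and -1.93. For chr20:55043642-55043842 in K562, 1 stood at 4.08 and the others between 3.50 and 3.59. For chr6:38197627-38197827 in K562, 1 stood at -4.61 (-4.605) and the others between -3.94 and -3.82. For chrX:87815858-87816058 in K562, 1 stood at -0.031 and the others between -0.57 and -0.47. For chr6:135644364-135644564 in HepG2, 1 stood at -0.35 and the others between -1.17 and -1.03. The median of unpartnered minus partnered windows in K562 was 0.055 in 1 library and up to 0.076 in the others.

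The 5 windows with the largest range between lines differed by the limma F test over the 16 RNA libraries. The range was 4.65 for chrX:87815858-87816058 (adjusted p = 6.8e-12), 4.35 for chr6:135644364-135644564 (1.4e-10), 4.32 for chr21:44860962-44861162 (4.5e-08), 4.20 for chr10:80218791-80218991 (1e-09) and 4.04 for chr5:151200570-151200770 (1.3e-08).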

How the results depend on the processing

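Scaling on the median random element gave 840 lower windows in GM12878, 822 higher in HepG2, 1080 lower and 936 higher in K562 and 838 higher in SK-N-SH, and 2261 lower pairs in GM12878, 4042 lower in HepG2 and 5191 lower and 4744 higher in K562. TMM gave 3756, 4611, 4681 and 4675 higher pairs in the 4 lines (31.4%, 38.6%, 39.1% and 39.1%, all pairs 33.9%, 39.3%, 40.3% and 41.0%), and edgeR on summed counts 619 higher windows in GM12878 (27.2%, all elements 28.8%). A plasmid minimum of 100, with 1532 windows tested, gave 810, 953, 1065 and 1067 lower windows in the 4 lines (52.9%, 62.2%, 69.5% and 69.6%, all elements 49.4%, 61.6%, 70.5% and 67.7%).

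The median minus that of random elements became -0.017 in GM12878, 0.018 in HepG2 (reversed), -0.11 in SK-N-SH and 0.12 in K562 at a minimum of 100. Without En09 it was -0.070 in HepG2, -0.0035 in K562 (reversed) and -0.25 in SK-N-SH, without En11 -0.097 in GM12878, without En02 -0.024 in HepG2, and without En19 0.029 in K562. The cause was not tested.

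The median minus that of partnered windows became 0.076, 0.093, 0.12 and 0.099 in the 4 lines at a minimum of 100. It was -0.0014 (reversed), 0.019, 0.026 and 0.011 when partnered windows without a measured partner were moved to the unpartnered side. In GM12878 it was 0.047 with a pseudocount of 5, 0.026 without En09 and 0.050 without En19. In HepG2 it was 0.094 without En02, 0.081 without En11 and 0.090 without En21. In K562 it was 0.061 without En11 and 0.099 against partnered windows without a variant, an alternative chosen after seeing the data, as was keeping the first window of each stretch. In SK-N-SH it was 0.082 without En11.

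Leaving out 1 library gave, line by line in the same order, 1107 to 1309, 1421 to 1475, 1605 to 1634 and 1614 to 1630 lower windows, 302 to 356, 531 to 570, 483 to 514 and 487 to 506 higher windows, 2739 to 3846, 5772 to 6644, 7733 to 7823 and 7717 to 7769 lower pairs, and 1705 to 2036, 2851 to 3055, 2995 to 3085 and 2872 to 2929 higher pairs. The difference from random elements ran from -0.091 to -0.050, -0.056 to -0.027, 0.0063 to 0.031 and -0.22 to -0.19, and from partnered windows 0.032 to 0.046, 0.068 to 0.083, 0.066 to 0.084 and 0.045 to 0.069. Between 1674 and 1791 windows differed between lines.

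With the replicate number as a block, lower and higher windows were 1207 and 309, 1446 and 534, 1613 and 488, and 1623 and 492, and pairs 3089 and 1702, 6024 and 2861, 7730 and 3004, and 7743 and 2881. The replicate numbers did not pair the samples: same-numbered deviations correlated between -0.014 and 0.033, and 5 of 16 libraries correlated best with their own number. For named windows in the line each was named for, 327 of 327 alternative values kept direction and call. Over all 4 lines, the scale of the median random element kept 92 of 96 calls, except chrX:87815858-87816058 in GM12878, K562 and SK-N-SH and chr6:135644364-135644564 in HepG2. Depth limits the windows with few RNA counts.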

Other observations

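The authors' deposited table gives a log2 fold change for 11271 of the 11958 pairs of unpartnered windows. It correlated with the edgeR values at r = 0.63 for GM12878, 0.78 for HepG2, 0.73 for SK-N-SH and 0.75 for K562, across pairs that are not independent replicates. Its medians in the authors' deposited table were, for GM12878, HepG2, K562, SK-N-SH, 1.93, 2.80, 3.42 and 2.90 for unpartnered windows and 2.11, 2.78, 3.45 and 3.12 for random elements.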
